A study of Mus musculus with 20 samples.

Results

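Chromatin accessibility around 5 transcription factor genes that steer myeloid and stem cell fate, Spi1, Irf8, Irf4, Gfi1 and Gfi1b, was described by the ATAC-seq peaks that lie in or nearest to them. A peak was given to a gene when its centre lay inside that gene, or otherwise when that gene had the nearest boundary among mm10 protein-coding genes. This rule found 68 of the 125343 peaks of the study: 11 for Spi1, 34 for Irf8, 6 for Irf4, 9 for Gfi1 and 8 for Gfi1b. A gene name therefore marks the neighbouring gene and not a shown target of the peak. All 68 peaks passed the filter on low counts.

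ATAC-seq cuts open DNA with a transposase, so the count in a peak rises with how often that DNA was accessible. The cells were Lin-cKit+Sca1+ (LSK) bone marrow cells, the compartment of mouse stem cells and multipotent progenitors, from C57Bl/6J mice aged 3 to 4 months. There were 5 genotypes with 4 libraries each, every library a pool of 2 mice: wild type with Vav-Cre (+/+;Vav-Cre, called WT here), Idh1 R132H (Idh1LSL-R132H/+;Vav-Cre), Idh2 R140Q (Idh2LSL-R140Q/+;Vav-Cre), Idh2 R172K (Idh2LSL-R172K/+;Vav-Cre) and Tet2 knockout (Tet2-/-). The 3 Idh genotypes carry 1 mutant allele that Cre switches on, and Vav regulatory DNA drives Cre in blood cells. The WT mice carry Vav-Cre as well, whereas the label of the Tet2 knockout names no Cre, so the loss of Tet2 and the absence of Cre cannot be told apart in that comparison. Peak counts show no point mutation, so the labels could not be checked at the targeted alleles. Libraries held 10.5 to 27.89 M counts in peaks, the lowest being replicate 2 of Idh2 R172K. Levels are CPM (counts per 1000000 counts, library sizes scaled by TMM), and means carry the SD of the 4 libraries of a genotype. A peak was called raised or lowered when the Benjamini-Hochberg adjusted p of edgeR's quasi-likelihood test, 2-sided over 123908 tested peaks, was under 0.05. In bulk cells, fewer cells with an open peak and less opening per cell cannot be told apart.

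Spi1 encodes PU.1, an ETS factor whose dose separates macrophage, granulocyte and lymphoid fates, and which restrains stem cell division. Irf8 and its close relative Irf4 bind DNA weakly alone and strongly beside PU.1, and Irf8 drives monocytes and dendritic cells at the cost of neutrophils. Gfi1 and Gfi1b are zinc finger repressors that recruit histone demethylase and deacetylase complexes: Gfi1 favours granulocytes and opposes PU.1, and Gfi1b is needed in red cell and platelet precursors, while both hold stem cells in check. Mutant IDH enzymes make 2-hydroxyglutarate, which inhibits TET2 and related dioxygenases, and the genotypes allow this to be set beside the loss of TET2 itself.

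The start sites are on chromosome 2 for Spi1 (91096096, plus strand) and Gfi1b (28621982, minus strand), chromosome 8 for Irf8 (120736358, plus strand), chromosome 13 for Irf4 (30749233, plus strand) and chromosome 5 for Gfi1 (107725805, minus strand). Distances in kb are from these sites to a peak's centre, negative upstream. For Spi1 the site comes from the deposited distances, and for the other genes from the RefSeq gene boundaries. The 250 bases upstream of the start sites are shown for the 4 genes with a RefSeq promoter entry (GRCm38.p6, the assembly of mm10), because a peak lies over each of them and they differ in CG content. They span chr8:120736108-120736357 for Irf8, chr13:30748983-30749232 for Irf4, chr5:107725806-107726055 for Gfi1 and chr2:28621983-28622232 for Gfi1b, each on the gene's strand. Capitals mark CG dinucleotides, the sites of DNA methylation on which TET enzymes act.
Irf8: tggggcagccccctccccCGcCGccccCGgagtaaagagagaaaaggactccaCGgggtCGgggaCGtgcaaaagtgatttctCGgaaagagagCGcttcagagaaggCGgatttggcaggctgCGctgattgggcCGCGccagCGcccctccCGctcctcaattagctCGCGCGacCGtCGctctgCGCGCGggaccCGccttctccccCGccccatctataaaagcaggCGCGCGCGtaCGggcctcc
Irf4: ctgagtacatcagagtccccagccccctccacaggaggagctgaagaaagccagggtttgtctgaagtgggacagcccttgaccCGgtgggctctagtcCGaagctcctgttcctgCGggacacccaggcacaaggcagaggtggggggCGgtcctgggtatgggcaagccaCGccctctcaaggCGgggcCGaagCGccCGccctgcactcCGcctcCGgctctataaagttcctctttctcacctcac
Gfi1: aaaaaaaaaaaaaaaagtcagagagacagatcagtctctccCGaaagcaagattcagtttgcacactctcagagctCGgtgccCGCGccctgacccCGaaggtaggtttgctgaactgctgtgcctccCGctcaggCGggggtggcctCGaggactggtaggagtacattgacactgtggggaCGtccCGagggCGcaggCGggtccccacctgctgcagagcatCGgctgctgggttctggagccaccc
Gfi1b: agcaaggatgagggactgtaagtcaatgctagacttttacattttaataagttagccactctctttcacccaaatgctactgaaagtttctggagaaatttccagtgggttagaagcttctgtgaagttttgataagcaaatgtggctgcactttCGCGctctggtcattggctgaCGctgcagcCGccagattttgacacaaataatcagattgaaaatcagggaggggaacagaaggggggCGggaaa

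The Irf8 window held 29 CG dinucleotides, the Gfi1 window 13, the Irf4 window 11 and the Gfi1b window 5. Over 32851 promoter windows of the same length the median was 6 and the 90th percentile 25, so the Irf8 window lay above the 90th percentile and the Gfi1b window below the median. Exact matches to 6 motifs were sought on both strands: a PU.1 core (GAGGAAG, in 10.6% of all windows), an ETS-IRF composite (2.3%), an interferon response pair (2.98%), a GFI1 core (AAATCAC, 2.75%), a GATA core (AGATAA, 9.99%) and an AP-1 site (TGANTCA, 6.75%). The last 4 letters of the composite and of the pair are the same, so these 2 can overlap. Other forms of the motifs were not sought, such as TGATAA, which differs from the GATA core in its first letter and stands in the Gfi1b window. The 4 windows held 1 match in all, a GFI1 core on the minus strand of the Irf8 window, 176 bases before the start site. It is shown with 12 bases on either side, on the plus strand (chr8:120736170-120736200), with the match in capitals.
Irf8 match: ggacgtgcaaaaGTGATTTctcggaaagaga

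Nearly all calls at these loci came from Idh2 R172K, with 1 further call in Tet2 knockout. In Idh2 R172K against WT, 17 of the 68 peaks were raised and 21 lowered, which is 55.9%, and across all tested peaks 53.0% were called (25.1% raised, 27.9% lowered). The share of called peaks at these loci was thus near that of the whole table. Called peaks past 2-fold numbered 9, of which 2 were raised and 7 lowered, where 16.9% of all tested peaks were called and past 2-fold (3.63% raised, 13.2% lowered). In 30 of the 68 peaks the Idh2 R172K and WT libraries did not overlap, against 43.9% of all tested peaks. The median log2 fold change was 0.00 over the 68 peaks and 0.01 over all tested peaks. The genes differed among themselves: all 8 Gfi1b peaks were called (5 raised, 3 lowered), 7 of 9 at Gfi1 (1 raised, 6 lowered), 4 of 6 at Irf4 (1 raised, 3 lowered), 7 of 11 at Spi1 (5 raised, 2 lowered) and 12 of 34 at Irf8 (5 raised, 7 lowered).

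**Figure D1:**
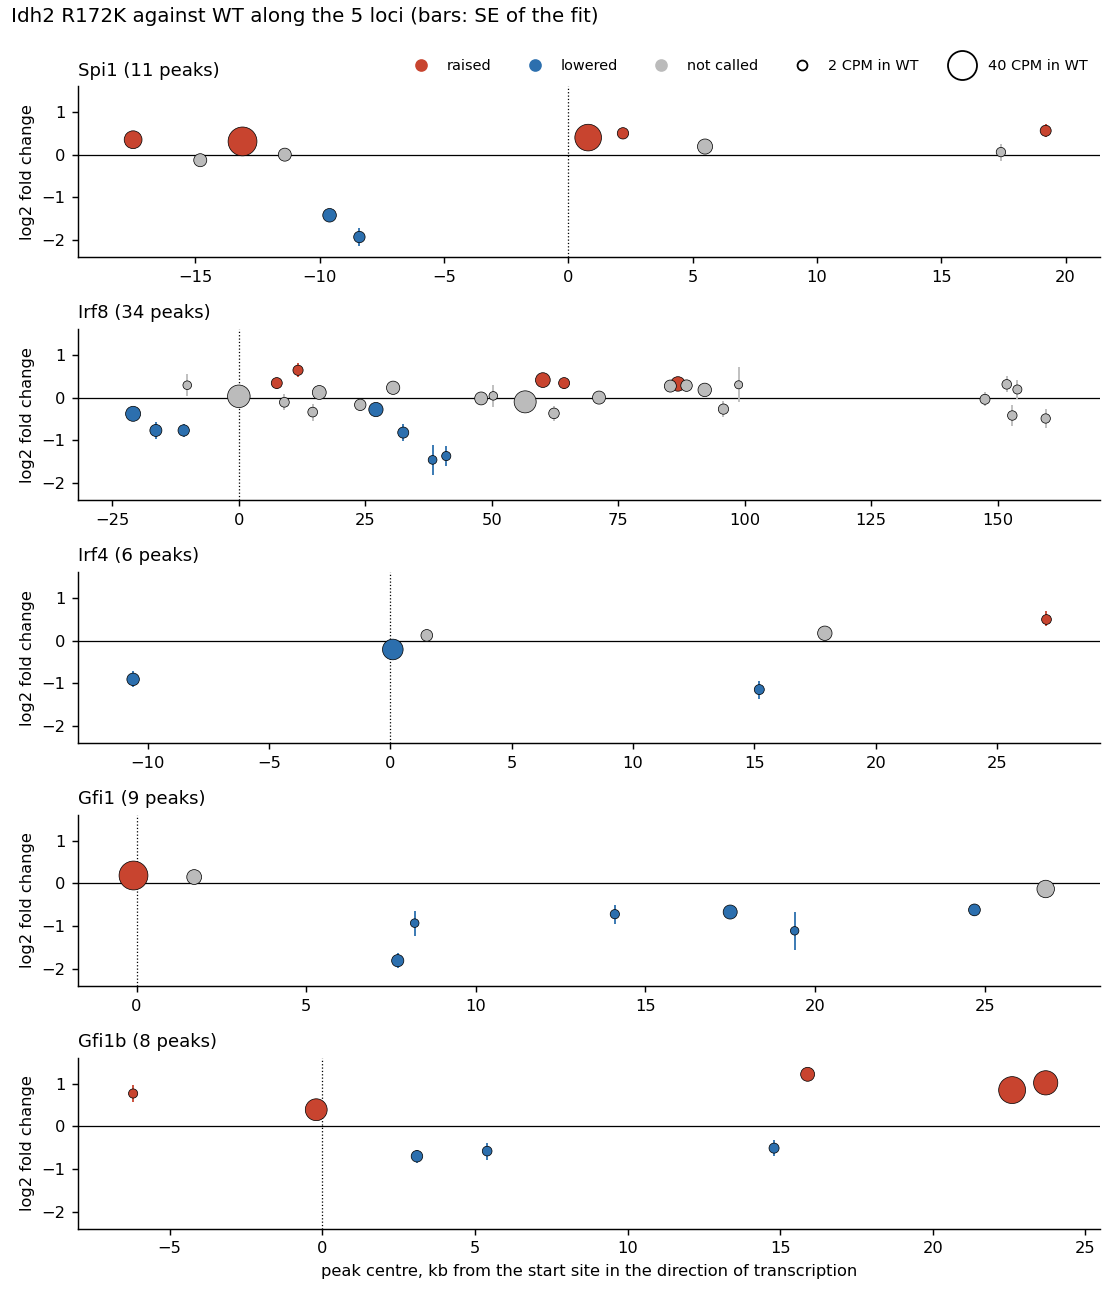
Log2 fold change of Idh2 R172K against WT (vertical axis, bars are the SE of the edgeR fit) by the position of each peak in kb from the start site (horizontal axis) for the 68 peaks. Circle area grows with the WT level, and colour gives the call. At Gfi1b the peaks at +15.9, +22.6 and +23.7 kb lie highest, and at Spi1 the lowered peaks at -9.6 and -8.4 kb lie between raised ones at -13.1 and +0.8 kb.

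Spi1 gained accessibility at its strongest peaks in Idh2 R172K and lost it at an intronic pair between them. The peak in the exon beside the start site, at +0.8 kb (chr2:91096315-91097475), held 37.9, 31.3, 29.5 and 34.7 CPM in the WT libraries and 44.5, 42.6, 42.7 and 46.2 CPM in the Idh2 R172K libraries. Every Idh2 R172K library lay above every WT library, and the 12 libraries of the other genotypes lay between 31.7 and 38.4 CPM, within or just above the WT range. The means were 33.3 ± 3.73 CPM in WT and 44.0 ± 1.73 in Idh2 R172K (n = 4 each, SD; log2 change 0.40, SE 0.07, edgeR adjusted p = 5.03e-06). The largest Spi1 peak, at -13.1 kb (chr2:91082322-91083633), lies in an intron that the RefSeq gene span includes through an upstream exon. It held 39.3, 40.6, 35.9 and 42.4 CPM in WT and 49.7, 47.3, 51.2 and 48.4 CPM in Idh2 R172K, again without overlap (log2 fold change 0.31, SE 0.07, edgeR adjusted p = 1.79e-04). When cyclic loess took out the trend of change with level, the value was 0.17 and still called.

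The known upstream regulatory element of Spi1, about -14 kb from the start site, keeps PU.1 levels high in myeloid cells. By their centres the peaks at -14.8 kb and -13.1 kb lie about equally near to that distance on either side, the first by a small margin. By its edge the wider -13.1 kb peak comes nearer, but neither peak spans that distance. Which of them holds the element thus cannot be told from these distances. The strong -13.1 kb peak was raised, as given above. The weak peak at -14.8 kb held 5.66 ± 0.77 CPM in WT and 5.26 ± 0.27 in Idh2 R172K (SD, n = 4 each) and was not called (log2 fold change -0.13, 95% interval -0.38 to 0.13). The peak centred nearest to the -12 kb element, at -11.4 kb, held 5.61 ± 1.04 and 5.59 ± 0.632 CPM (SD, n = 4 each) and was not called either. An edge of the -13.1 kb peak lies about as near to that element. A raised peak further out, at -17.5 kb, went from 13.2 ± 1.05 to 16.9 ± 1.16 CPM (n = 4 each, SD; log2 change 0.35, edgeR adjusted p = 3.22e-04).

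The intronic pair at Spi1 held the largest fall among the 68 peaks, at -8.4 kb, and the fourth-deepest at -9.6 kb. The peak at -8.4 kb (chr2:91087593-91087770) held 3.95, 2.95, 3.81 and 3.86 CPM in WT and 0.769, 1.75, 0.739 and 1.01 CPM in Idh2 R172K. The peak at -9.6 kb (chr2:91086413-91086629) held 6.56, 6.38, 6.83 and 5.91 CPM in WT and 2.00, 3.12, 2.62 and 2.14 CPM in Idh2 R172K. In both peaks the groups were well apart, and replicate 2 was the highest of the Idh2 R172K libraries. The log2 fold changes were -1.93 (SE 0.21, edgeR adjusted p = 1.17e-09) and -1.42 (SE 0.14, edgeR adjusted p = 5.93e-11). In Tet2 knockout the -8.4 kb peak held 2.98 ± 0.645 CPM (SD, n = 4) and was not called (log2 fold change -0.30, edgeR adjusted p = 0.39). The counts behind the -8.4 kb peak were 18 to 109 per library. The calls of the 5 Spi1 peaks with a library-by-library or mean value and a call above were kept in all 19 alternative fits.

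**Figure D2:**
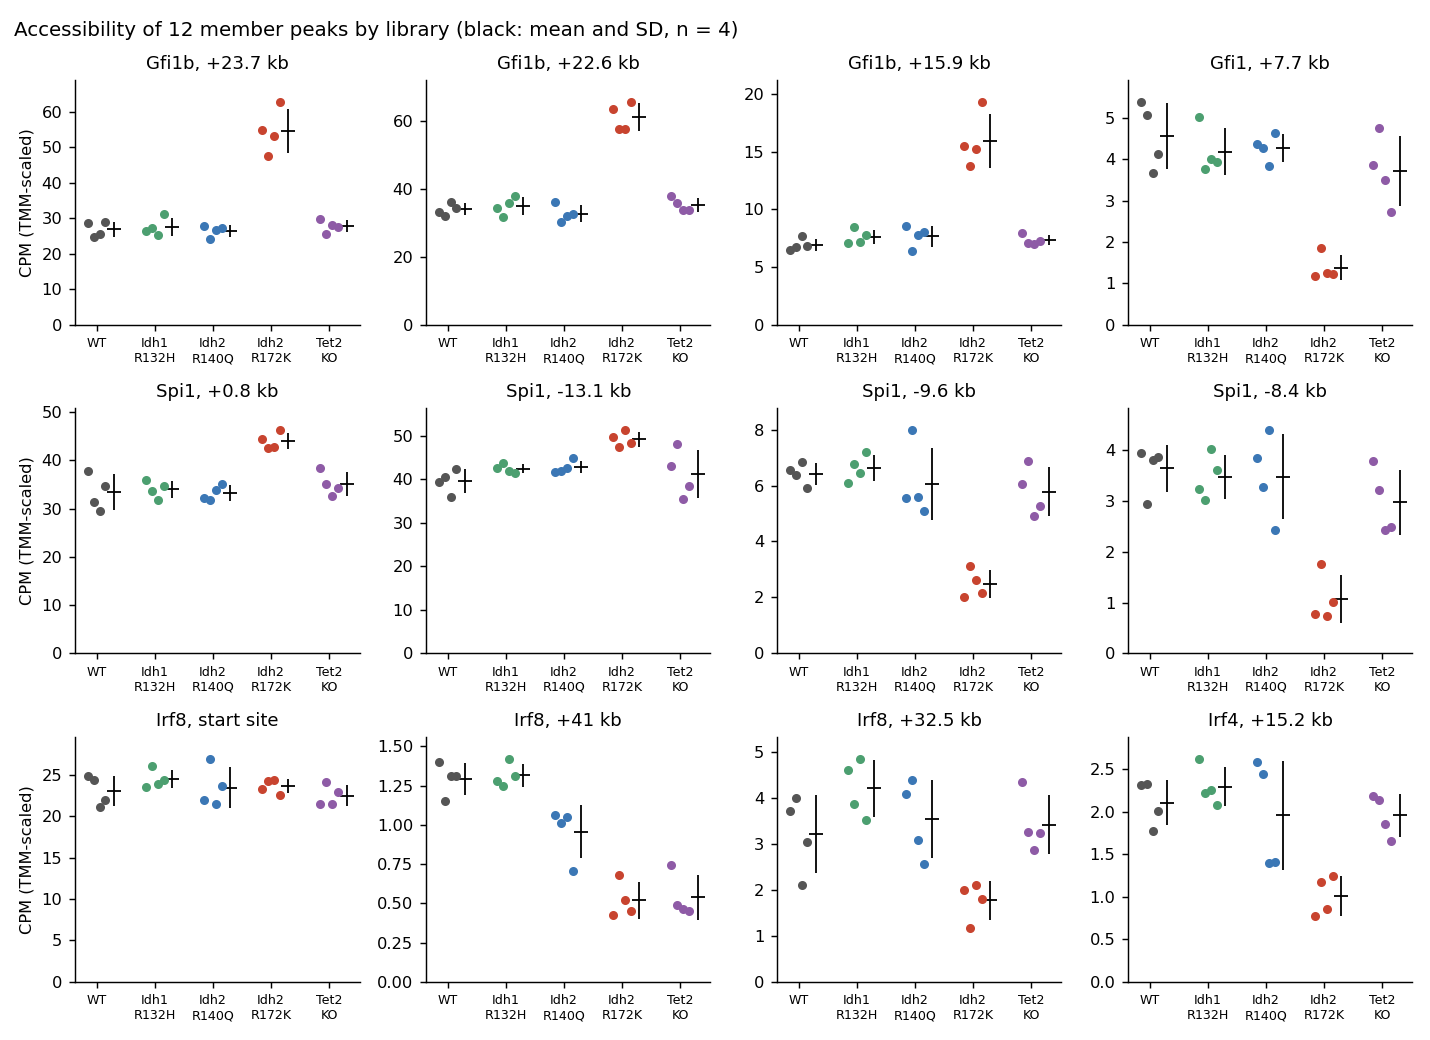
CPM by library for 12 peaks, with points for the 4 libraries of each genotype and black bars for mean and SD. In Idh2 R172K the Gfi1b peaks at +23.7, +22.6 and +15.9 kb and the Spi1 peaks at +0.8 and -13.1 kb lie above WT and the Gfi1 +7.7 kb and Spi1 -9.6 and -8.4 kb peaks below it, while at Irf8 +41 kb both Idh2 R172K and Tet2 knockout lie below WT.

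Irf8, the determinant of monocytes and dendritic cells, had no call at its 2 strongest peaks in any mutant against WT. The promoter peak (chr8:120735811-120736868), which lies over the CG-rich window shown above, held 24.9, 24.3, 21.1 and 21.9 CPM in WT and 23.3, 24.2, 24.4 and 22.6 CPM in Idh2 R172K. The groups overlapped and the peak was not called (log2 fold change 0.03, 95% interval -0.11 to 0.17). Its means were 24.5 ± 1.08 CPM in Idh1 R132H, 23.4 ± 2.50 in Idh2 R140Q and, for Tet2 knockout, 22.5 ± 1.29 (n = 4 per genotype, SD). The peak at +56.6 kb, near the known +56 kb enhancer, held 21.8 ± 1.64 CPM in WT (SD, n = 4 per genotype), with 20.6 ± 1.99 for Idh2 R172K and 19.5 ± 1.83 for Tet2 knockout. It was called in none of the comparisons with WT. Its interval in Tet2 knockout ran from -0.34 to 0.00 on the log2 scale.

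The 7 losses at Irf8 lay among weaker peaks, 4 of them between these 2. The peak at +41 kb (chr8:120777225-120777486), at the distance of an enhancer known from plasmacytoid dendritic cells, was the one member peak called in 2 genotypes. It held 1.40, 1.15, 1.31 and 1.31 CPM in WT, 0.423, 0.682, 0.518 and 0.45 CPM in Idh2 R172K, and 0.747, 0.487, 0.463 and 0.451 CPM in Tet2 knockout. Every library of these 2 mutants lay below every WT library. The Idh1 R132H libraries, at 1.25 to 1.42 CPM, overlapped the WT range. The Idh2 R140Q libraries held 1.06, 1.01, 1.05 and 0.706 CPM, below all WT libraries, but that peak was not called (log2 fold change -0.43, 95% interval -0.84 to -0.01, edgeR adjusted p = 0.908). The log2 fold change was -1.37 in Idh2 R172K (SE 0.24, edgeR adjusted p = 9.02e-06) and -1.28 in Tet2 knockout (SE 0.23, edgeR adjusted p = 5.05e-04). A difference between the 2 mutants was not called (log2 difference -0.10, 95% interval -0.66 to 0.46). The peak is small, with 7 to 37 counts per library. The Tet2 call was lost within the libraries low at Xist (log2 fold change -1.13, edgeR adjusted p = 0.0645), where each group has 2 libraries, and held in the other 18 alternatives.

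At the distance of the +32 kb Irf8 enhancer, known from the dendritic cells that present antigen to CD8 T cells, the peak at +32.5 kb held 3.72, 4.01, 2.10 and 3.04 CPM in WT. It held 2.00, 1.17, 2.11 and 1.80 CPM in Idh2 R172K, where the highest library reached the lowest of WT (log2 fold change -0.82, SE 0.19, edgeR adjusted p = 5.70e-04). Tet2 knockout held 3.42 ± 0.639 CPM there (SD, n = 4). The peak at +38.3 kb fell by 1.46 on the log2 scale in Idh2 R172K (edgeR adjusted p = 5.68e-04), on counts of 1 to 34 per library. Upstream, the -10.9 kb peak fell from 3.58 ± 0.184 to 2.17 ± 0.556 CPM (n = 4 each, SD; log2 change -0.77, edgeR adjusted p = 5.88e-05). Within the libraries high at Xist its change was -0.38 and not called (edgeR adjusted p = 0.168).

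Raised Irf8 peaks were modest in size. The peak at +11.7 kb, in an intron, went from 2.30 ± 0.401 to 3.61 ± 0.508 CPM in Idh2 R172K (n = 4 each, SD; log2 change 0.64, edgeR adjusted p = 0.00109) and that at +60.1 kb from 8.12 ± 0.416 to 10.7 ± 0.646 CPM (log2 fold change 0.41, edgeR adjusted p = 6.76e-04). The +86.8 kb peak (0.32) lost its call within the libraries low at Xist (0.25) and without Idh2 R172K replicate 1 (0.26), and the +11.7 kb call was lost within the libraries low at Xist (0.46). Of the 34 Irf8 peaks 22 were not called in Idh2 R172K, more than at any of the other 4 genes. The enhancer known at -50 kb from Irf8 falls to the neighbouring gene Cox4i1 under the naming rule. Its peak (chr8:120685853-120686794) held 29.6, 30.8, 23.3 and 29.6 CPM in WT and 15.5, 19.4, 19.1 and 14.6 CPM in Idh2 R172K, without overlap (log2 fold change -0.74, SE 0.16, edgeR adjusted p = 7.39e-04). It held 23.6 ± 4.08 CPM in Tet2 knockout (SD, n = 4) and was not called there (edgeR adjusted p = 0.387).

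**Figure D3:**
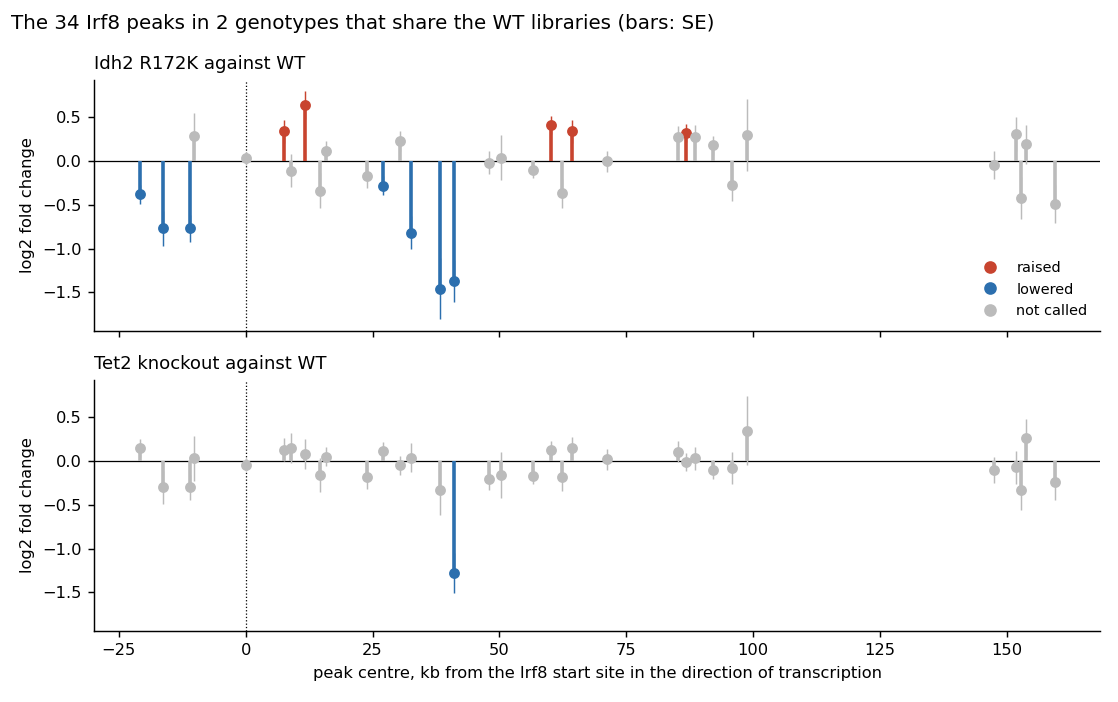
Log2 fold change against WT (vertical axes, bars are SE) of the 34 Irf8 peaks by distance from the start site in kb (horizontal axis), for Idh2 R172K above and Tet2 knockout below. The 2 comparisons share the WT libraries. The peak at +41 kb is at -1.37 in Idh2 R172K and -1.28 in Tet2 knockout, and the peaks at +32.5 and +38.3 kb are called in Idh2 R172K and not in Tet2 knockout.

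Irf4, the relative of Irf8 that acts in lymphocytes, dendritic cells and alternatively activated macrophages, was lowered at 3 of its 6 peaks in Idh2 R172K. The exonic peak at +15.2 kb (chr13:30764188-30764583) held 2.31, 2.33, 1.77 and 2.01 CPM in WT and 0.769, 1.17, 0.85 and 1.24 CPM in Idh2 R172K. All WT libraries lay above all Idh2 R172K libraries (log2 fold change -1.15, SE 0.21, edgeR adjusted p = 1.98e-05). The upstream peak at -10.6 kb held 4.82, 5.52, 4.21 and 5.25 CPM in WT and 2.46, 3.60, 2.44 and 2.59 CPM in Idh2 R172K (log2 fold change -0.91, SE 0.19, edgeR adjusted p = 2.56e-04). In Idh2 R140Q this peak spread from 3.67 to 7.67 CPM and was not called.

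The peak over the Irf4 start site, at +0.1 kb (chr13:30748900-30749811), fell slightly, from 18.7 ± 0.933 to 16.3 ± 0.698 CPM (n = 4 each, SD; log2 change -0.21, edgeR adjusted p = 0.0129). This call was lost within the libraries low at Xist (-0.17) and within those high at Xist (-0.23). The single raised Irf4 peak, at +27.0 kb, held 1.67, 1.43, 2.63 and 1.80 CPM in WT and 2.89, 2.92, 2.14 and 2.59 CPM in Idh2 R172K, with overlap (log2 fold change 0.51, edgeR adjusted p = 0.0178). Its call was lost without Idh2 R172K replicate 1 (0.44), without WT replicate 1 (0.46) or 2 (0.40), with scaling by library size alone (0.43) and within the libraries low at Xist (0.29).

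Gfi1, the granulocytic repressor, lost accessibility downstream of its start site in Idh2 R172K while its promoter peak was slightly higher. The intronic peak at +7.7 kb (chr5:107717773-107718402) held 5.39, 5.07, 3.68 and 4.14 CPM in WT and 1.19, 1.85, 1.26 and 1.24 CPM in Idh2 R172K. The groups were far apart, and the 12 libraries of the other genotypes lay between 2.74 and 5.03 CPM (log2 fold change -1.81, SE 0.17, edgeR adjusted p = 1.39e-11). The peak at +17.5 kb fell from 7.05 ± 1.12 to 4.40 ± 0.506 CPM (n = 4 each, SD; log2 change -0.67, edgeR adjusted p = 1.64e-05). The +24.7 kb peak fell from 4.09 ± 0.277 to 2.66 ± 0.25 CPM (log2 fold change -0.62, edgeR adjusted p = 1.94e-04). The other 3 lowered Gfi1 peaks held 0.67 to 1.37 CPM in WT and fell by 0.72 to 1.11 on the log2 scale. The strongest Gfi1 peak away from the promoter, at +26.8 kb, held 12.6 ± 0.895 CPM in WT and 11.5 ± 1.17 in Idh2 R172K (SD, n = 4 each) and was not called (95% interval of the log2 fold change -0.30 to 0.05).

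The Gfi1 promoter peak (chr5:107724709-107727121) held 44.6, 40.6, 39.0 and 33.7 CPM in WT and 48.7, 47.0, 46.7 and 39.5 CPM in Idh2 R172K. The groups overlapped, since Idh2 R172K replicate 4, at 39.5 CPM, lay below the WT libraries at 44.6 and 40.6 CPM (log2 fold change 0.20, SE 0.07, edgeR adjusted p = 0.0138). This call did not hold without WT replicate 4 (0.13) or Idh2 R172K replicate 1 (0.17). It was also lost with cyclic loess scaling (0.06), with scaling by library size alone (0.13) and within the libraries high at Xist (0.21). The peak within 1.5 kb of the Gfi1 enhancer known at -35 kb falls to the neighbouring gene Evi5 and was raised (chr5:107759026-107759831). It held 35.7, 32.6, 34.8 and 38.4 CPM in WT and 55.9, 47.0, 47.9 and 60.5 CPM in Idh2 R172K (log2 fold change 0.58, SE 0.08, edgeR adjusted p = 1.52e-07). All 4 Idh2 R172K libraries lay above all WT libraries there.

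Gfi1b, the erythroid and megakaryocytic paralogue, showed the largest gains. The downstream peak at +23.7 kb (chr2:28597813-28598825) held 28.6, 24.8, 25.6 and 29.0 CPM in WT and 55.0, 47.6, 53.3 and 62.8 CPM in Idh2 R172K. The adjacent peak at +22.6 kb (chr2:28598885-28599934) held 33.3, 31.9, 36.1 and 34.4 CPM in WT and 63.4, 57.6, 57.5 and 65.5 CPM in Idh2 R172K. In both, the Idh2 R172K libraries stood well above the other 16, which did not pass 31.1 and 38.0 CPM. The log2 fold changes were 1.02 (SE 0.07, edgeR adjusted p = 3.94e-15) and 0.85 (SE 0.07, edgeR adjusted p = 3.31e-14). The deposited annotation gives these 2 peaks to another gene identifier, so their count among Gfi1b peaks follows from the naming rule.

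The peak nearest to the known +16 and +17 kb enhancers was at +15.9 kb (chr2:28605721-28606439). Its centre lies 0.1 kb from the first distance and 1.1 kb from the second, which it does not span. This peak held 6.52, 6.71, 7.69 and 6.81 CPM in WT. It held 15.5, 13.8, 15.2 and 19.3 CPM in Idh2 R172K, the largest rise among the 68 peaks (log2 fold change 1.22, SE 0.10, edgeR adjusted p = 1.34e-13). The other 3 mutants lay between 6.42 and 8.57 CPM. Near the +13 kb enhancer no peak was centred within 1.5 kb. The promoter peak (chr2:28621518-28622914) held 24.1, 21.7, 18.2 and 21.7 CPM in WT and 30.2, 28.4, 26.2 and 28.3 CPM in Idh2 R172K, without overlap (log2 fold change 0.39, SE 0.07, edgeR adjusted p = 7.92e-06).

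Within Gfi1b, 3 weak peaks between the promoter and the downstream gains went the other way. The +3.1 kb peak fell from 3.76 ± 0.545 to 2.33 ± 0.32 CPM (n = 4 each, SD; log2 change -0.70, edgeR adjusted p = 1.84e-04). The +5.4 kb peak (-0.58) and the +14.8 kb peak (-0.51) were also called, less firmly. The +5.4 kb call was lost without Idh2 R172K replicate 3 (-0.42) or WT replicate 4 (-0.45), and within the libraries low (-0.49) or high (-0.51) at Xist. The +14.8 kb call was lost without Idh2 R172K replicate 3 (-0.46) or 4 (-0.44) or WT replicate 3 (-0.39), with cyclic loess scaling (-0.38), and within the libraries low (-0.55) or high (-0.54) at Xist.

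Summed over a gene's peaks, Gfi1b changed most. Its 8 peaks together held 98.4 ± 3.54 CPM in WT and 167 ± 12.6 in Idh2 R172K, 1.70 times as much, with 155 CPM in the lowest Idh2 R172K library and 102 in the highest of WT. Idh1 R132H, Idh2 R140Q and Tet2 knockout held 101 ± 5.11, 97.7 ± 5.62 and 101 ± 3.15 CPM (SD, n = 4 each) and overlapped WT. The 2 downstream peaks made up 27.4% and 34.5% of the Gfi1b sum in WT, and 32.7% and 36.5% in Idh2 R172K. Spi1 summed to 124 ± 7.39 CPM in WT and 146 ± 3.42 in Idh2 R172K (1.17 times, without overlap), ahead of Idh1 R132H at 130 ± 2.18 and of Idh2 R140Q and Tet2 knockout at 126 ± 2.81 and 126 ± 10.6, all 3 of which overlapped WT.

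Irf4 moved the other way, with 39.2 ± 0.675 CPM in WT and 35.5 ± 1.05 in Idh2 R172K (0.904 times, without overlap with WT, SD, n = 4 each). Tet2 knockout at 38.2 ± 1.49 and Idh2 R140Q at 39.3 ± 3.80 overlapped Idh2 R172K, and Idh1 R132H at 40.4 ± 0.771 did not. For Irf8 the order from Idh1 R132H (165 ± 4.24 CPM) over Idh2 R140Q (161 ± 8.64), WT (160 ± 4.41) and Idh2 R172K (159 ± 3.20) to Tet2 knockout (155 ± 3.91) rested on overlapping groups (SD, n = 4 each). Raised and lowered Irf8 peaks thus left the Idh2 R172K sum at 0.997 times that of WT. For Gfi1 the sums ran from 79.5 ± 4.06 CPM in Idh1 R132H to 72.0 ± 3.98 in Tet2 knockout (SD, n = 4 each), with WT at 78.8 ± 7.03 and Idh2 R172K at 76.2 ± 6.99, all overlapping WT. The Gfi1 promoter took 50% of that sum in WT and 59.7% in Idh2 R172K.

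**Figure D4:**
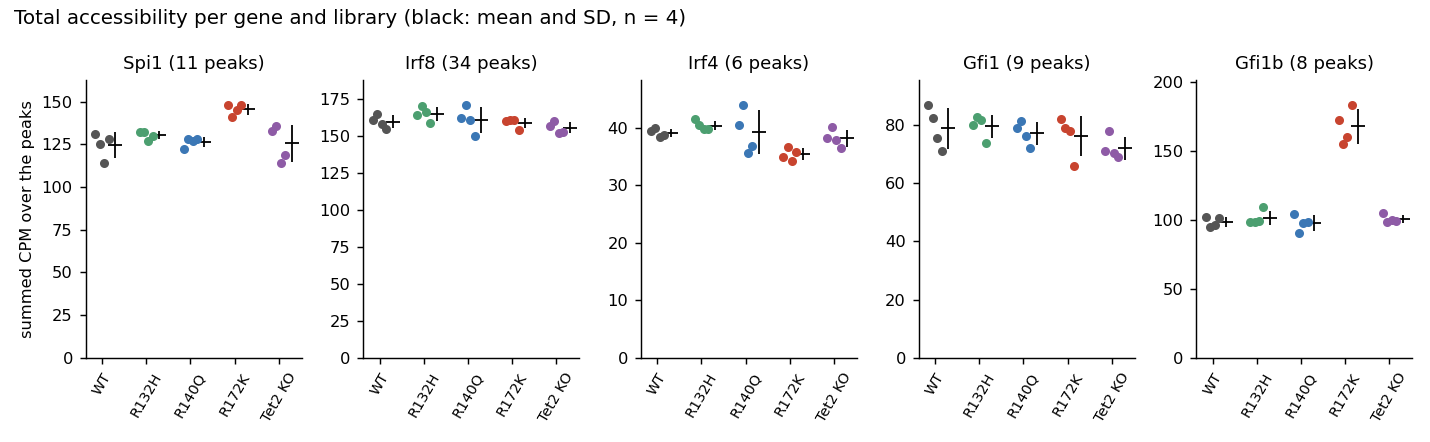
CPM summed over the peaks of each gene (vertical axes from 0) by library and genotype, with black bars for mean and SD (n = 4). Idh2 R172K lies apart from WT at Gfi1b (167 against 98.4 CPM), Spi1 (146 against 124) and Irf4 (35.5 against 39.2), and overlaps it at Irf8 and Gfi1.

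Per kb of peak, the level at the start site could be set side by side between genes. In WT it was 28.7 ± 3.21 CPM per kb at Spi1 (+0.8 kb), 21.8 ± 1.75 at Irf8, 20.5 ± 1.02 at Irf4, 16.4 ± 1.86 at Gfi1 and 15.3 ± 1.73 at Gfi1b (SD, n = 4 each). In Idh2 R172K the same peaks held 37.9 ± 1.49 CPM per kb at Spi1, 22.3 ± 0.779 at Irf8, 17.9 ± 0.765 at Irf4, 18.8 ± 1.68 at Gfi1 and 20.2 ± 1.16 at Gfi1b (SD, n = 4 each). Spi1 stood above the others in both genotypes, whereas Gfi1b was last in WT. In Idh2 R172K the Gfi1b mean was higher than those of Gfi1 and Irf4, but its libraries overlapped those of both. In WT, Irf8 and Irf4, and Gfi1 and Gfi1b, were neighbours within their spread.

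The direction of a call in Idh2 R172K went with the level of the peak. Of the 11 member peaks with 10 CPM or more in WT, 7 were raised and 1 lowered (63.6% and 9.09%), where 42.8% and 16.9% of all tested peaks of that level were raised and lowered. Among the 39 peaks of 2 to 10 CPM, 8 were raised and 14 lowered (20.5% and 35.9%), beside 23.4% and 34.5% of all tested peaks. Among the 18 peaks under 2 CPM, 2 were raised and 6 lowered (11.1% and 33.3%), beside 18.7% and 26.6%. The WT level also enters the fold change, and the tilt moved with the scaling: with cyclic loess, 22.9% of all tested peaks of 10 CPM or more were raised and 25.1% lowered, and of the 11 member peaks 54.5% and 9.09%. Raised member peaks had a median of 7.73 CPM in WT and a median width of 719 bp, lowered ones 3.64 CPM and 444 bp, and those not called 3.87 CPM and 508 bp. Raised peaks were also stronger and wider than lowered ones over all tested peaks (4.25 CPM and 632 bp against 2.62 CPM and 503 bp).

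**Figure D5:**
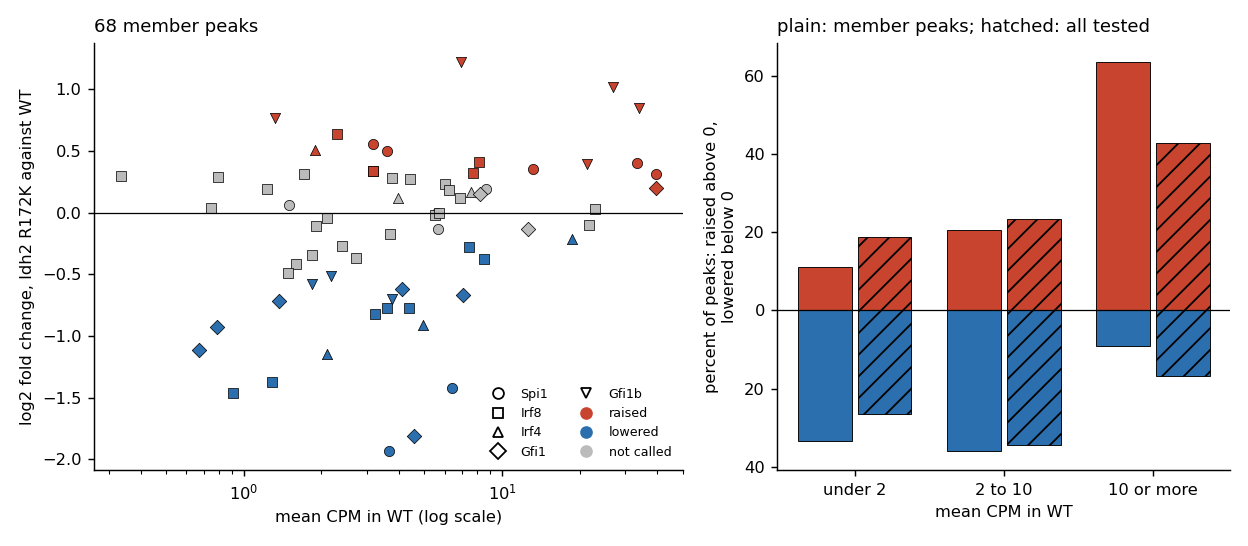
Left, log2 fold change of Idh2 R172K against WT (vertical axis) by mean WT level (log scale, CPM) for the 68 peaks, with symbols for the gene and colours for the call. Right, percent of peaks raised (up) and lowered (down) in 3 classes of WT level for the 68 peaks (plain) and all tested peaks (hatched), where the class of 10 CPM or more has 63.6% raised among the 68 and 42.8% among all.

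Idh1 R132H and Idh2 R140Q left no called peak at the 5 genes. In Idh1 R132H edgeR called 0 of the 68 peaks (lowest adjusted p = 0.853), as did DESeq2, where 0.0274% of all tested peaks were called by edgeR. With an unadjusted p under 0.05 there were 3, where 5.07% of all tested peaks were under it, and 1 peak had no overlap with WT (3.38% of all tested peaks). The log2 fold changes ran from -0.46, at the Irf8 peak at +11.7 kb (95% interval -0.81 to -0.11), to 0.36, at the Irf8 +32.5 kb peak (0.04 to 0.69). In Idh2 R140Q edgeR and DESeq2 again called 0 of 68 (lowest edgeR adjusted p = 0.86, background 0.0153%), with 2 at an unadjusted p under 0.05 (5.5% of all tested peaks) and 4 without overlap (2.69%). The values ran from -0.50 at the Spi1 +17.4 kb peak (95% interval -0.91 to -0.09) to 0.28. At Gfi1b +15.9 kb the intervals were -0.07 to 0.34 in Idh1 R132H and -0.04 to 0.38 in Idh2 R140Q, both below the rise of 1.22 in Idh2 R172K.

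In Tet2 knockout 1 of the 68 peaks was called, the Irf8 +41 kb peak already given, where 3.1% of all tested peaks were called (0.785% raised, 2.32% lowered). At an unadjusted p under 0.05 there were 5, beside 15.9% of all tested peaks, and 2 peaks had no overlap with WT, beside 8.58%. The median log2 fold change was -0.07 over the 68 peaks and 0.01 over all tested peaks. All 9 Gfi1 peaks had a negative value, from -0.41 to -0.04, beside 42 of the 68 peaks and 48.2% of all tested peaks. The 9 values come from the same libraries. None of the 9 peaks was called (lowest edgeR adjusted p = 0.218, at +7.7 kb, where the value was -0.33).

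The Idh2 R172K libraries were also set directly against those of the other 2 genotypes that bear on them. Against Tet2 knockout 18 peaks were higher and 15 lower in Idh2 R172K, 33 of 68 in all, where 44.3% of all tested peaks were called (20.1% higher, 24.1% lower). The Gfi1b +23.7 kb peak was higher in Idh2 R172K by 0.98 (95% interval 0.84 to 1.13, edgeR adjusted p = 1.55e-14) and the Gfi1b +15.9 kb peak by 1.13 (0.94 to 1.32). The Spi1 -8.4 kb peak was lower by 1.62 on the log2 scale (-1.62, 95% interval -2.05 to -1.19, edgeR adjusted p = 1.25e-07), and the Gfi1 +7.7 kb peak likewise (-1.48, 95% interval -1.83 to -1.13). Against Idh2 R140Q, the other mutation of the same gene, 16 peaks were higher and 18 lower in Idh2 R172K, 34 of 68, where 47.0% of all tested peaks were called (21.5% higher, 25.5% lower). The Gfi1b +23.7 kb peak was again higher, by 1.05 (95% interval 0.90 to 1.19, edgeR adjusted p = 2.85e-15), and the Gfi1 +7.7 kb peak lower (-1.70, 95% interval -2.05 to -1.35). These comparisons share the Idh2 R172K libraries.

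Genes that act with the 5 factors were counted as 4 lists. The corepressors bound by the Gfi1 proteins (Kdm1a, Rcor1, Hdac1 and Hdac2) had 8 of 19 peaks raised and 1 lowered in Idh2 R172K, where 25.1% of all tested peaks were raised and 27.9% lowered. Their median log2 fold change was 0.26 beside 0.01 over all tested peaks. The list was not matched for level, and of all tested peaks with 10 CPM or more in WT 42.8% were raised and 16.9% lowered. A peak near Rcor1, the CoREST scaffold, went from 1.56 ± 0.434 to 3.09 ± 0.56 CPM (log2 fold change 1.07), and an exonic peak of Hdac2, a deacetylase, from 59.1 ± 3.29 to 74.8 ± 3.93 CPM (n = 4 each, SD; log2 change 0.34). The other interferon regulatory factors had 15 raised and 20 lowered of 64 (median 0.03), a called share near the 53.0% of all tested peaks. A peak near Irf2, a repressor of interferon genes, rose from 6.57 ± 0.80 to 16.9 ± 1.47 CPM (n = 4 each, SD; log2 change 1.38, edgeR adjusted p = 1.17e-14). An intronic peak of the same gene, Irf2, went the other way in level, with 7.27 ± 0.603 CPM in WT and 1.76 ± 0.177 in Idh2 R172K. A peak near Irf1, an activator of interferon genes, fell (-1.12).

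Partner and opposing factors, such as the C/EBP proteins, GATA factors, Runx1, Egr1 and Egr2, had 92 raised and 143 lowered of 432 peaks (median -0.12), also near the called share of 53.0% over all tested peaks. A peak near Runx1, which acts upstream of Spi1 in blood development, fell from 6.63 ± 0.544 to 1.27 ± 0.446 CPM (n = 4 each, SD; log2 change -2.43, edgeR adjusted p = 1.28e-16). Peaks near Gata2 (-3.09) and Id2 (-2.11), an inhibitor of helix-loop-helix factors, fell as well. Targets of the 5 factors, among them cytokine receptors and granule and oxidase genes, had 22 raised and 40 lowered of 104 (median -0.17), beside 25.1% raised and 27.9% lowered of all tested peaks. The promoter peak of Csf3r rose from 14.3 ± 1.31 to 28.3 ± 3.2 CPM (n = 4 each, SD; log2 change 1.0, edgeR adjusted p = 1.95e-13). The promoter peak of Csf2rb, the common beta chain of cytokine receptors, rose from 18.3 ± 1.42 to 27.9 ± 1.71 CPM (n = 4 each, SD; log2 change 0.60). A peak near Ncf1, a subunit of the phagocyte oxidase, fell (-1.32).

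In Tet2 knockout 2 peaks were raised and 9 lowered among the 432 of partner factors. The other IRF genes had 0 and 2 of 64, the targets 0 and 6 of 104, and the corepressors 0 and 0 of 19, where 0.785% of all tested peaks were raised and 2.32% lowered. The partner and IRF counts are near that background. The lowered ones included the same Gata2 peak as in Idh2 R172K (-0.83, edgeR adjusted p = 5.12e-06) and peaks near Ikzf1 (-1.23), the lymphoid regulator Ikaros, Jun (-0.78), Irf2 (-0.69) and Mpo (-0.68), the neutrophil peroxidase. Idh1 R132H and Idh2 R140Q had 0 called peaks in all 4 lists.

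Promoter peaks of marker genes were read to see what the sorted cells held. As the mean over 6 promoters, LSK markers held 18.5 to 19.7 CPM in the WT libraries and 20.0 to 22.5 in Idh2 R172K, with Kit at 2.47 CPM and Flt3 at 4.56 CPM in WT and at 1.39 and 1.04 CPM in Idh2 R172K. Of the 6 LSK promoters 3 were raised and 2 lowered, and Flt3 also stands in the dendritic cell list. Of all tested peaks 25.1% were raised and 27.9% lowered in Idh2 R172K, and the marker lists were not matched for level. Monocyte and macrophage markers held 10.5 to 13.5 CPM in WT and 7.32 to 9.39 in Idh2 R172K, where 4 of their 5 promoters were lowered, and dendritic cell markers 9.23 to 9.79 and 6.94 to 7.62 CPM, with 3 of 4 lowered. Stroma and endothelium markers held 9.26 to 11.3 CPM in WT and 12.1 to 13.6 in Idh2 R172K, with 3 of 3 raised. Of the defining genes of mature lymphocytes and red cells, several (Cd79a, Cd79b, Ms4a1, Cd3e, Cd3d, Cd3g, Cd8a, Hba-a1, Hbb-bt, Klf1 and Epor) had no promoter peak. Of 6 mature neutrophil promoters 4 were lowered and 1 raised in Idh2 R172K (5.96 to 6.93 CPM in WT, 6.06 to 6.49 in Idh2 R172K), and both B cell promoters with a peak were lowered (14.4 to 16.9 and 12.4 to 15.1 CPM). The Irf8 and Irf4 losses in Idh2 R172K thus came with lowered promoters and lower means in the monocyte and dendritic cell lists. In the neutrophil and B cell lists the means overlapped WT, and the neutrophil Mmp9 promoter held 12.8 CPM in WT and 18.4 in Idh2 R172K. The part of cell composition in the Irf8 and Irf4 losses was not tested.

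By the summed level of 4 Xist peaks, every genotype had 2 libraries under 5 CPM (3.86 to 4.93) and 2 above 30 (33.8 to 40.1). The labels do not give the sex of the mice. Within the low set 15 member peaks were raised and 17 lowered in Idh2 R172K, where 24042 and 28343 of all peaks were. Within the high set 13 and 12 were, beside 19587 and 23388 of all peaks.

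The peaks elsewhere whose level followed a member most closely were found by Pearson correlation of log2 CPM over the 20 libraries, as a description in which the points share genotype and depth. For Gfi1b +22.6 kb they were near P2ry2 (0.978), Auh (0.977) and Ndel1 (0.977), and for the Gfi1b promoter near Hmga1 (0.95), Acap1 (0.947) and Gadd45g (0.946). For Spi1 -13.1 kb they were near Peak1 (0.926), Bcl2l11 (0.907) and Ralgps1 (0.905). For the Irf8 promoter, which was not called in any genotype, they were near Pgam1 (0.887), Kdm2a (0.866) and Ubash3b (0.865), for Irf8 +56.6 kb near Psap (0.938), Ado (0.932) and Gng10 (0.927), and for the Irf4 start site near Ublcp1 (0.924), Togaram2 (0.924) and Ppfibp2 (0.923). For the Gfi1 promoter they were near Rab11fip5 (0.881), Rsrp1 (0.875) and Rara (0.875), and for Gfi1 +26.8 kb near Nr4a3 (0.848), Enthd1 (0.815) and Plek2 (0.805).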

How the data were processed

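The submitters' processing notes name featureCounts, MACS2, SAMtools, Picard, BWA and Trim Galore, and the mm10 build. Not given in the sources used here are their order, versions and settings, any shift of reads for the transposase, and if reads or fragments were counted. The authors deposited whole-number counts per peak of 1 common peak set (median width 514 bp) and an annotation with distances to start sites and Ensembl identifiers. The deposited count columns were tied to samples by genotype and replicate number. The columns that join Idh1 with the R140Q change were taken as Idh2 R140Q, the genotype that carries it. Peaks were named from the boundaries of 21900 RefSeq protein-coding genes of GRCm38.p6, and 56.3% of centres lay inside a gene.

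The test on counts was edgeR 4.0.16 under R 4.3.3 (TMM, expression filter by genotype, robust quasi-likelihood fit with 1 mean per genotype over 20 libraries, 15 residual degrees of freedom). The filter removed 1435 peaks, the biological coefficient of variation was 7.73%, and the fit was tested on simulated data. Intervals are log2 fold change and SE from that fit at 95%. DESeq2 1.42.0, other scalings (limma 3.58.1 for cyclic loess), other filters, a fit on the genotypes compared, left-out libraries, Xist sets, a replicate term and 2 other ways of naming peaks were the alternatives. No pair of libraries in a group agreed within sampling noise (chi-square per degree of freedom 1.15 to 2.95). Same-numbered libraries deviated together in all 4 numbers (r over 0.1) in 2 of 10 genotype pairs, WT with Idh1 R132H and WT with Idh2 R140Q, where the replicate term changed no member call.

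The members and lists were chosen with earlier results of these data known. Named peaks were, per gene, the strongest promoter and non-promoter peak, the first 3 raised and lowered by p in each comparison with WT, and those within 1.5 kb of a known element. Further peaks given only by range or in comparisons were chosen after their values were seen.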

Additional observations from a re-analysis of the deposited data

Results flagged for a closer look

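In 11 of 170 groups of 4 libraries (34 peaks in 5 genotypes) 1 library stood apart from the others by Dixon's test at 95%, where chance gives about 1 in 20. For Gfi1 +7.7 kb in Idh2 R172K, replicate 2 held 1.85 CPM and the others 1.19 to 1.26. For Irf4 -10.6 kb in Idh2 R172K, replicate 2 held 3.60 CPM and the others 2.44 to 2.59. Both lie nearer to WT than the other Idh2 R172K libraries, and replicate 2 is the shallowest library, whose part in this was not tested. For Spi1 -8.4 kb in WT, replicate 2 held 2.95 CPM, below 3.81 to 3.95. At Irf8 +41 kb the Tet2 knockout replicate 1 held 0.747 CPM, above 0.451 to 0.487, and the Idh2 R140Q replicate 4 held 0.706 CPM, below 1.01 to 1.06.

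At the Gfi1 promoter the Idh2 R140Q replicate 4 held 37.2 CPM, below 41.1 to 41.8, and the Tet2 knockout replicate 2 held 39.8 CPM, above 35.9 to 36.5. For Irf8 -10.9 kb the Idh1 R132H replicate 1 held 3.69 CPM, above 2.73 to 2.88. For Irf4 +27.0 kb the Tet2 knockout replicate 1 held 1.35 CPM, below 1.80 to 1.85. At the Cox4i1 peak that lies 50 kb upstream of Irf8, WT replicate 3 held 23.3 CPM, below 29.6 to 30.8, and Idh1 R132H replicate 1 held 27.0 CPM, below 30.7 to 31.3.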

How the results depend on the processing

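Idh2 R172K against WT gave 14 to 19 raised and 19 to 21 lowered peaks when 1 library was left out, 16 and 20 with DESeq2, 18 and 19 with cyclic loess and 13 and 23 with library size alone, which also moved the raised share of all called peaks from 47.3% to 37.7%. Within the libraries high at Xist 12 were lowered (21 with all libraries). Counting only the 36 peaks within 10 kb of the gene gave 12 lowered, and 0 in Tet2 knockout. Within the libraries low at Xist, Tet2 knockout had 0 lowered peaks and 1 raised (Spi1 -13.1 kb, 0.27).

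Idh2 R172K against Tet2 knockout (18 raised, 15 lowered) gave 11 and 9 within the libraries high at Xist, 9 lowered within 10 kb and 11 raised under the deposited gene identifiers (45 peaks). Leaving out 1 library gave 14 to 18 and 12 to 16, and library size alone moved the raised share of all called peaks from 45.5% to 34.7%. Against Idh2 R140Q (16 and 18) the same settings gave 10 and 7, 9, and 10, with 14 to 17 and 17 to 19 on leaving out 1 library. The raised share against Idh2 R140Q was 45.6% and 37.0% with library size alone. Without 1 library, Tet2 knockout kept 0 raised and 1 lowered, and Idh1 R132H and Idh2 R140Q 0 and 0. The Irf8 -10.9 kb peak, lower in Idh2 R172K than in Tet2 knockout, was at 0.01 within the libraries high at Xist. These subsets hold fewer libraries or peaks.

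With replicate number as a block, Idh2 R172K had 19 raised and 23 lowered peaks against WT, 18 and 17 against Tet2 knockout and 17 and 20 against Idh2 R140Q, while Tet2 knockout had 0 and 1 and the other genotypes 0. In no comparison made did every library correlate best with its own number. Idh1 R132H and Idh2 R172K were not compared, and there every Idh1 R132H library correlated best with the Idh2 R172K library of its number (r 0.063 to 0.206). This is a hint from the data only. Peaks near 1 CPM rest on few counts (7 to 37 per library at Irf8 +41 kb).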
